A study of Mus musculus with 2 samples.

Results

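Ascl3-positive, ionocyte-like duct cells of the mouse submandibular gland are described here, in single-cell RNA sequencing of 1 library from a p63 wild-type and 1 from a p63 KO mouse, both adult and 12 weeks old. A cell was a member when it held at least 1 molecule (UMI, a tag that marks 1 captured RNA) of Ascl3, at least 2 UMIs over Foxi1, Hepacam2, Itih5 and Stap1 together, and under 8% of its UMIs from the 14 Klk1-family kallikrein genes. Only barcodes on which 200 or more genes were seen and whose mitochondrial share of UMIs stayed under 20% were considered, hereafter kept cells. It found 102 members among 4086 kept cells, 26 of 1663 wild-type and 76 of 2423 KO cells. The labels describe a dissociated whole gland, although they name the source as epithelial progenitor cells, and a 10x Chromium library, which reads transcripts near their polyadenylated end. They give no allele, promoter or Cre driver for the KO, no time of deletion, and do not say whether glands were pooled. Since each genotype had 1 library, there is no replicate check on any difference between genotypes, no test was run, and every interval covers counting error only.

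Ionocytes are rare epithelial cells that move ions and acid across an epithelium, and are known from airway, kidney collecting duct (where they are called intercalated cells), inner ear and salivary ducts. The forkhead transcription factor Foxi1 directs their program, which includes the vacuolar proton pump, chloride channels and bicarbonate exchangers. The proton pump is built of a membrane-bound V0 part, through which protons pass, and a cytosolic V1 part that splits ATP. Ascl3 is a basic helix-loop-helix factor that marks a small population of duct cells in mouse salivary glands. Hepacam2 is a cell-surface immunoglobulin-family protein, Itih5 a secreted hyaluronan-binding protein and Stap1 a signalling adaptor that is also made by immune cells.

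Trp63, the targeted gene, summed to 149 UMIs over wild-type kept cells and 20 over KO ones, or 18.8 and 2.91 CPM (counts per 1000000 UMIs of the class). It held 3 UMIs in the 26 wild-type members and 0 in the 76 KO members, where a count of 0 allows a share of cells with a UMI of up to 3.95%. A deletion that spares the far end of the transcript would not be seen by these reads. The kept cells had medians of 3406 and 2088 UMIs, and only cells of at least 2175 and 1077 UMIs were present, so absence of a UMI means less in the KO library. The libraries shared 11 cell barcodes, none of them a member. The median member held 3074.5 UMIs (wild type) and 2257.5 UMIs (KO), and 9.02% and 14.6% of their UMIs were mitochondrial, against 5.10% and 6.35% in the other kept cells.

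The genes that chose the cells are given as a description. Ascl3 had 44 UMIs in wild-type members, with 1 to 6 per cell and a median of 1, and 112 UMIs in KO members, with 1 to 5 and a median of 1. Most members sat at the lower limit for Ascl3, since 17 of 26 wild-type and 50 of 76 KO members had exactly 1 UMI. Foxi1 was found in 14 of 26 and 46 of 76 members, Hepacam2 in 19 and 51, Itih5 in 18 and 53, and Stap1 in 11 and 15. The 4 co-markers summed to a median of 4 UMIs in wild-type and 3 in KO members. Exactly 2 co-marker UMIs, the lowest that passed, were held by 8 and 23 members. Just outside the limit, 3 wild-type and 10 KO cells had Ascl3 with 1 co-marker UMI, and 14 and 12 had Ascl3 with none. The kallikrein limit alone left out 8 wild-type cells, from 8.45% of UMIs upward, and 2 KO cells, from 8.52%. All 4 co-markers were seen in 3 wild-type and 2 KO members, and 2 of the 4 was the commonest pattern, with 11 and 39. Ascl3 lies on chromosome 7 (109727465 to 109731726, minus strand), Foxi1 on chromosome 11 (34204338 to 34208089, minus), Hepacam2 on chromosome 6 (3457096 to 3498298, minus), Itih5 on chromosome 2 (10153571 to 10256529, plus) and Stap1 on chromosome 5 (86071746 to 86106125, plus), all in GRCm38.

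**Figure D1:**
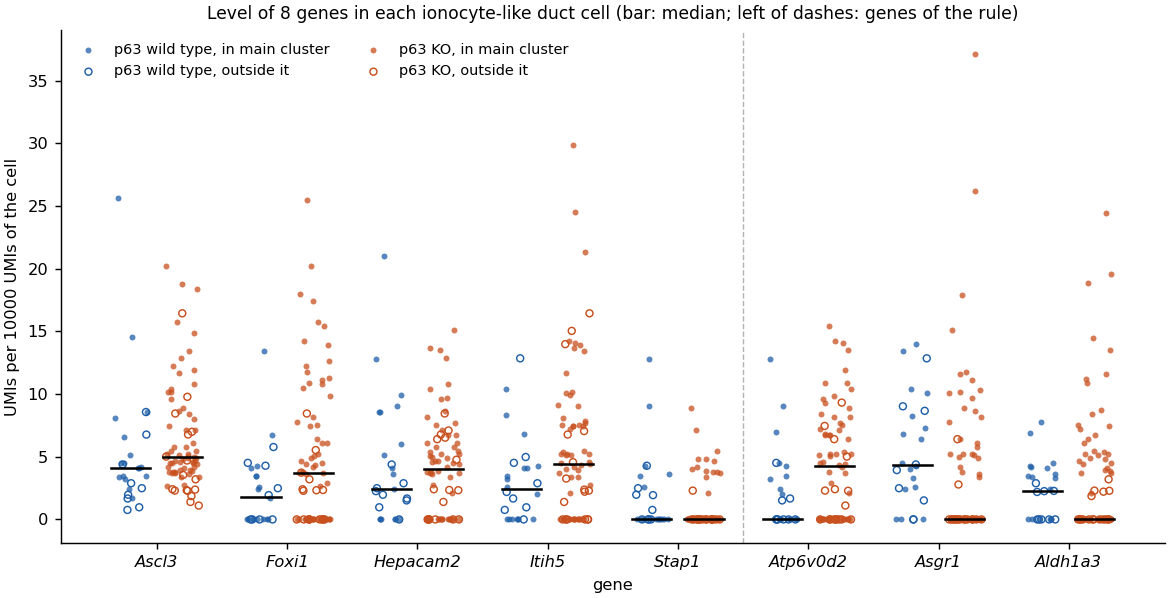
UMIs of 8 genes per 10000 UMIs of the cell (y axis) in each of the 26 wild-type (blue) and 76 KO (orange) members; filled points lie in the cluster that holds most members, open points outside it, and bars are medians. The first 5 genes chose the cells. The median of Ascl3 was 4.11 for the wild type and 4.95 for the KO, and many points of the other genes lie at 0.

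Because the rule used a forkhead factor and a helix-loop-helix factor, promoters of the rule, marker and leading genes were read for the forkhead core TGTTTAC, searched on both strands, and for the E-box CAGCTG, which reads alike on either. The motifs do not overlap. RefSeq promoters of GRCm38.p6, from 250 bases before to 50 bases after a start, were matched by symbol for 13 of 21 rule, marker and leading genes, which gave 17 promoters. The forkhead core was in promoters of 1 of these 13 genes, against 3.65% of 32851 promoters in the table. The E-box was in promoters of 3 of the 13, against 16.3% of all. A gene counted when any of its promoters matched, while the shares over all are of single promoters. The 2 measures are therefore not alike, and no enrichment is read from them. Promoters of the 2 transcription factors themselves, of Hepacam2 with 1 E-box and of the Pde1c start with 2 forkhead cores follow, in lower case from 5′ to 3′ with motif matches in capitals. A match describes letters and is not evidence of binding.
Ascl3, chr7:109731683-109731982, minus strand: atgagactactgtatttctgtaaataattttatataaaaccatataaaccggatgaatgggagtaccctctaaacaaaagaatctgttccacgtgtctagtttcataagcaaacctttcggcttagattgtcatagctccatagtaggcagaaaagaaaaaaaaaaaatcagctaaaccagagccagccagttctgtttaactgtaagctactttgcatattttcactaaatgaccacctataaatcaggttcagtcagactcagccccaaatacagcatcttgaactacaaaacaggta
Foxi1, chr11:34208040-34208339, minus strand: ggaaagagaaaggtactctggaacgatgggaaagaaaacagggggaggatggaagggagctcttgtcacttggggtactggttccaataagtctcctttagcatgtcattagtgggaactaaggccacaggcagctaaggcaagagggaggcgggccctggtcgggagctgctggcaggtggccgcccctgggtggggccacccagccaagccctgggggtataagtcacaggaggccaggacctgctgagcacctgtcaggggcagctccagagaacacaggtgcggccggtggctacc
Hepacam2, chr6:3494449-3494748, minus strand: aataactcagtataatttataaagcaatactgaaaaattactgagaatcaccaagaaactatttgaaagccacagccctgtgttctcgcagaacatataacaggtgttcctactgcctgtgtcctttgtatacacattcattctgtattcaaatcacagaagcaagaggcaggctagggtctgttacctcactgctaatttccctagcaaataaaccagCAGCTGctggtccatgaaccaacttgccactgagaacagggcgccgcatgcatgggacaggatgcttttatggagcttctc
Pde1c, chr6:56369585-56369884, minus strand: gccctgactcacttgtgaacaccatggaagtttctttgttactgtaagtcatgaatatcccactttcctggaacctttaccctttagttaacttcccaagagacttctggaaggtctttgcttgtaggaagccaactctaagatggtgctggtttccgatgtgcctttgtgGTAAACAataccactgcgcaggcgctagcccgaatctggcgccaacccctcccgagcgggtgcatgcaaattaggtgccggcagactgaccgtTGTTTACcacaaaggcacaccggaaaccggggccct

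Members stood together by genes that the rule did not use. Each library was clustered on its own without the rule genes, the kallikreins and Trp63. In the wild type, 1 cluster of 43 cells held 17 of 26 members (65.4%), and in the KO 1 cluster of 184 cells held 59 of 76 (77.6%). Beside the rule genes, the wild-type cluster was led by Slc4a11, Nrip3, Cpxm2, Aldh1a3 and Atp6v0d2, and the KO cluster by Aldh1a3, Iapp, Asgr1, Dsc3, Gng4, Ckap2 and Tspan1. The clusters made up 2.59% of wild-type kept cells (95% exact binomial interval 1.88 to 3.47%) and 7.59% of KO kept cells (6.57 to 8.72%). When both libraries were clustered together, the KO members stayed in 1 cluster, with 58 of 76, but the wild-type members scattered, with at most 6 of 26 (23.1%) in any cluster.

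Most wild-type members outside these clusters carried RNA of other cell types. Fewer of the KO did, in a library where fewer cells at large held basal or immune RNA. Of the 9 in the wild type, 6 lay in a cluster led by Pthlh, Id3, Il33 and other genes that include the basal keratin Krt15. The others lay 1 each in clusters led by endothelial (Ptprb, Flt1), natural killer (Klrd1, Gzmc) and red cell (Alas2) genes. These 9 cells had a median of 4561 UMIs, against 2857 in the 17 inside, and together held 53368 of the 106225 UMIs of all wild-type members. Basal keratins or Trp63 were found in 6 of 9 against 2 of 17, immune genes in 8 of 9 against 3 of 17, and haemoglobin made up 51.3% of UMIs in 1 cell. In the KO library, 17 members lay outside, among them 7 in the Foxi1-led cluster described next, 2 in a cluster led by Krt14 and Krt17 and 1 in a red cell-like cluster, where haemoglobin was 30.5% of UMIs. Of these 17, basal keratins or Trp63 were found in 4, immune genes in 4 and endothelial genes in 3. No doublets were removed, and droplets with more than 1 cell were not tested for. For some genes and lists, values over the 17 and 59 members inside the clusters are therefore given beside values over all members.

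The KO library held a further Foxi1-led cluster with little Ascl3. It had 118 cells with a median of 2866 UMIs, against 2118 in the 184 cells of the main cluster, and was led by Foxi1, Cpxm2, Rnf152, Hepacam2, Fam189a2, Dsc3, Bsnd and Tmprss2. At least 2 co-marker UMIs were found in 54 of its 118 cells and in 150 of 184 of the main cluster, and Ascl3 was found in 16 and 71. The main cluster was picked for holding most members, and the rule required Ascl3 and co-marker UMIs of them, so the levels of these genes in the 2 clusters are given as a description. Ascl3 was 4.43-fold higher in the main cluster (95% counting interval 2.73 to 7.54), at 262 against 59.2 CPM, and Itih5 3.62-fold (2.60 to 5.14). Foxi1 was 1.99-fold higher (1.54 to 2.59), at 513 against 258 CPM, and Hepacam2 2.37-fold (1.74 to 3.26). The second cluster carried more kallikrein, with a median of 5.55% of UMIs against 0.338%, and more Egf, the growth factor of granular tubules, at 497 against 31.3 CPM. Bsnd, the barttin subunit of chloride channels, stood at 62.2 CPM there and 67.4 CPM in the main cluster, a ratio of 1.08 (0.594 to 2.01). Clusters were numbered and not named, and Egf and Bsnd, unlike the rule genes, entered the clustering.

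Wild-type cells with at least 2 co-marker UMIs, whatever their kallikrein share, lay both inside and outside the main cluster, 32 against 36. Of its 43 cells, 23 had Ascl3 and 32 at least 2 co-marker UMIs, and the 26 that were not members had a median kallikrein share of 7.04% of UMIs, close to the 8% limit of the rule. A neighbouring cluster of 158 cells with a median of 21.0% kallikrein had 9 cells with Ascl3 and 11 with at least 2 co-marker UMIs. Under the kallikrein limit, cells without Ascl3 but with at least 2 co-marker UMIs numbered 23 (wild type) and 187 (KO), of which 6 and 90 lay in the main clusters. Foxi1 UMIs were found in 1.53% of the other kept cells of the wild type (0.991 to 2.25%) and in 6.31% of those of the KO (5.36 to 7.37%), and in 0.733% and 3.45% after each cell was thinned to 1000 UMIs. Among immune and endothelial reference cells, which should lack Foxi1, 0 of 115 and 0 of 472 had a Foxi1 UMI, which allows up to 2.61% and 0.636%. These cells had medians of 2533 and 1518.5 UMIs.

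The share of members was higher in the KO library with the barcode filter used here, and lower with a stricter one. Members were 1.56% of wild-type kept cells (1.02 to 2.28%) and 3.14% of KO kept cells (2.48 to 3.91%), and 0.481% and 1.11% when the rule was applied to thinned cells. Basal cells, gated by keratins, were 25.8% of wild-type and 2.68% of KO kept cells, which moves the share of every other type. A stricter barcode filter (500 genes, 10% mitochondrial) left 1.14% of wild-type and 0.801% of KO kept cells, so the order of the libraries turned. With 1 library per genotype, a difference between genotypes cannot be told apart from one between dissociations.

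**Figure D2:**
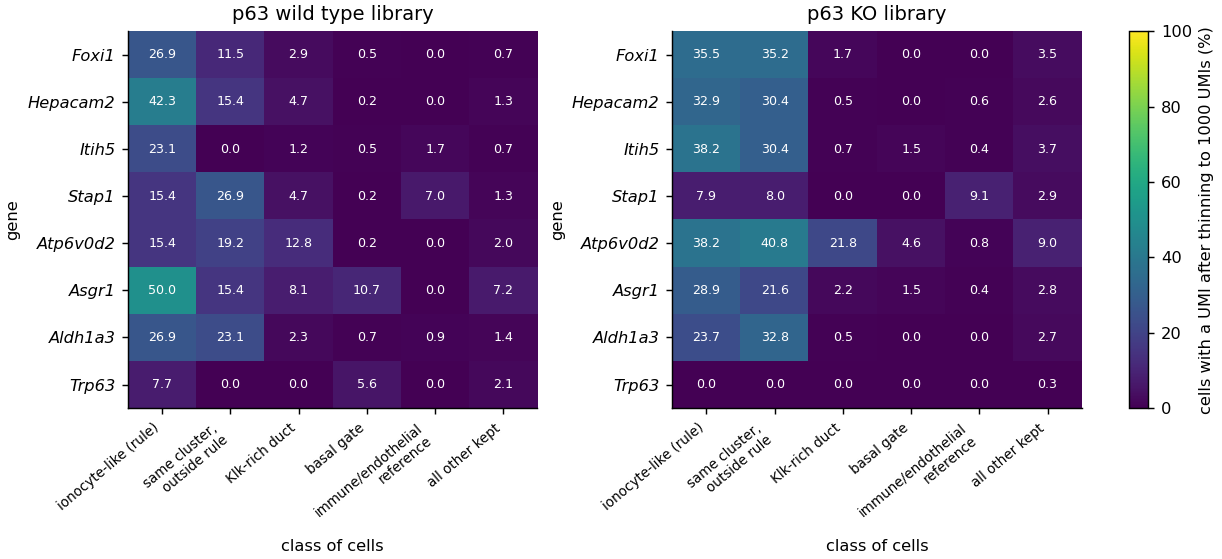
Percentage of cells with at least 1 UMI after thinning each cell to 1000 UMIs (colour and printed values), by gene (rows) and class of cells (columns), in the wild-type (left) and KO (right) library. Atp6v0d2 reached 15.4% and 38.2% in members, and 12.8% and 21.8% in Klk-rich duct cells, while Aldh1a3 reached 26.9% and 23.7% in members and 2.33% and 0.495% in Klk-rich cells.

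Atp6v0d2, the d2 subunit of the V0 part, is the only marker of the label that the rule did not use. It lies on chromosome 4 (19876841 to 19922605, minus strand). It was found in 12 of 26 wild-type members, with a median of 0 and at most 3 UMIs, and in 47 of 76 KO members, with a median of 1 and at most 4. Its level was 169 CPM in wild-type members and 16.5 CPM in the other kept cells, a 10.3-fold difference (5.91 to 16.9), and 410 against 88.3 CPM in the KO, a 4.64-fold difference (3.64 to 5.86). Over members inside the main clusters it was 14.9-fold and 5.55-fold. Other duct cells held it too, since 36.0% of wild-type and 43.3% of KO Klk-rich duct cells also held a UMI. Against those, the level in members was 1.18-fold in the wild type and 1.79-fold (1.37 to 2.30) in the KO, and neither passed. Reference cells held it in 0.870% and 1.48%.

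The wider gene program of the members included a set of enzymes, transporters and membrane proteins that stood out in both libraries. A gene was called higher or lower where both sides together gave 50 or more UMIs and the counting interval lay wholly beyond 2-fold, which is a rule of size and not a test. In the wild type, 105 of 8291 genes (1.27%) were higher and 29 (0.35%) lower in members than in other kept cells, and in the KO 120 of 8379 (1.43%) were higher and 130 (1.55%) lower. Of 7571 genes with enough UMIs in both, 42 (0.555%) were higher in both libraries and 25 (0.33%) were lower in both. The 42 are 40% of the wild-type list and 35% of the KO list. Each of these higher lists includes all 5 rule genes, which are high by selection. The lower lists include 2 (wild type) and 9 (KO) granular tubule genes, a group that holds the kallikreins limited by the rule. Scaling by TMM, which rescales the UMI totals of both sides, shifted the all-gene median from 0.13 to -0.25 log2 for the wild type. For the KO it went from -0.04 to -0.22, so this median was not level under TMM scaling in either library. The split then became 32 higher and 55 lower in the wild type and 74 and 186 in the KO, with 22 genes higher in both.

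As leading genes, 20 were taken by the lower bound of their ratio, using the smaller of the bounds in the 2 libraries, of which Ascl3, Foxi1, Hepacam2 and Itih5 belong to the rule. Of the other 16, 14 were still higher in both libraries under TMM scaling, all but Tspan1 and Aldh1a1, and 15 when only members inside the main clusters were used, all but Tspan1. Against Klk-rich duct cells, where 8.01% and 3.4% of genes were higher in members and 3.16% and 2.1% lower, 4 of the 16 passed in both libraries, which were Asgr1, Ifi27l2a, Slc16a11 and Tmem9b. The smaller number of Klk-rich cells also leaves fewer genes with 50 UMIs.

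Enzymes of retinoic acid synthesis were among the leading genes. Aldh1a3, a retinaldehyde dehydrogenase, was found in 15 of 26 wild-type members, with at most 3 UMIs per cell, and in 37 of 76 KO members, with at most 5. Its level was 188 against 7.92 CPM in the wild type, 23.8-fold higher (13.6 to 39.9), and 320 against 28.6 CPM in the KO, 11.2-fold higher (8.28 to 14.9). Aldh1a1, of the same family, was 6.38-fold (3.11 to 11.8) and 5.77-fold (3.68 to 8.72) higher, from 9 and 19 members.

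Transporters followed. Slc4a11, a member of the bicarbonate transporter family that carries protons or hydroxide, was found in 14 and 20 members and was 26.1-fold (15.3 to 43.1) and 10.4-fold (6.19 to 16.7) higher. Slc16a11, of the monocarboxylate transporter family, was found in 14 and 53 members and was 4.99-fold (3.33 to 7.22) and 9.67-fold (7.64 to 12.1) higher. Slc12a2, the sodium-potassium-chloride cotransporter that loads secretory cells with chloride, was found in 26 of 26 and 70 of 76 members, with medians of 4 UMIs per cell in both libraries. It was 3.68-fold (3.02 to 4.45) and 5.76-fold (5.08 to 6.50) higher than in other kept cells, and 3.52-fold and 10.9-fold higher than in Klk-rich cells. Under TMM scaling Slc12a2 did not pass in the wild type, at 2.33-fold.

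Receptors and signalling genes made up a further group. Asgr1, a subunit of the asialoglycoprotein receptor known from liver, was found in 21 of 26 wild-type members, with a median of 2 and at most 4 UMIs, and in 30 of 76 KO members, with a median of 0 and at most 7. Its level was 442 against 62.0 CPM, 7.14-fold higher (5.17 to 9.64), and 315 against 23.4 CPM, 13.5-fold higher (9.88 to 18.1). In the wild type, Asgr1 UMIs were also found in 29.1% of basal cells, and in 3.08% of the 65 gated in the KO. Pde1c, a calcium-dependent cyclic nucleotide phosphodiesterase, was 12.7-fold (7.38 to 20.8) and 5.44-fold (3.79 to 7.63) higher, and Itpr2, a calcium channel of the endoplasmic reticulum, 8.76-fold (5.95 to 12.5) and 4.57-fold (3.29 to 6.21).

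The remaining leading genes ranged from 4.17-fold to 15.9-fold. Nrip3 was 15.9-fold and 6.63-fold higher, Vwf, the clotting factor that is otherwise typical of endothelium, 14.7-fold and 7.88-fold, and Cpxm2, a carboxypeptidase-like protein, 11.7-fold and 7.14-fold. Vwf rested on 9 UMIs in 8 wild-type members and 26 UMIs in 22 KO members, while the 6 endothelial markers were found in 3 and 6 members. The part of endothelial RNA in this was not tested. Tmprss13, a membrane serine protease, was 7.57-fold and 6.87-fold higher, and Tspan1, a tetraspanin, 6.02-fold and 9.03-fold. Tspan1 came from 5 of 26 wild-type members and 45 of 76 KO members, and in the wild type it did not pass with members of the main cluster alone, at 4.66-fold (1.49 to 11.1).

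**Figure D3:**
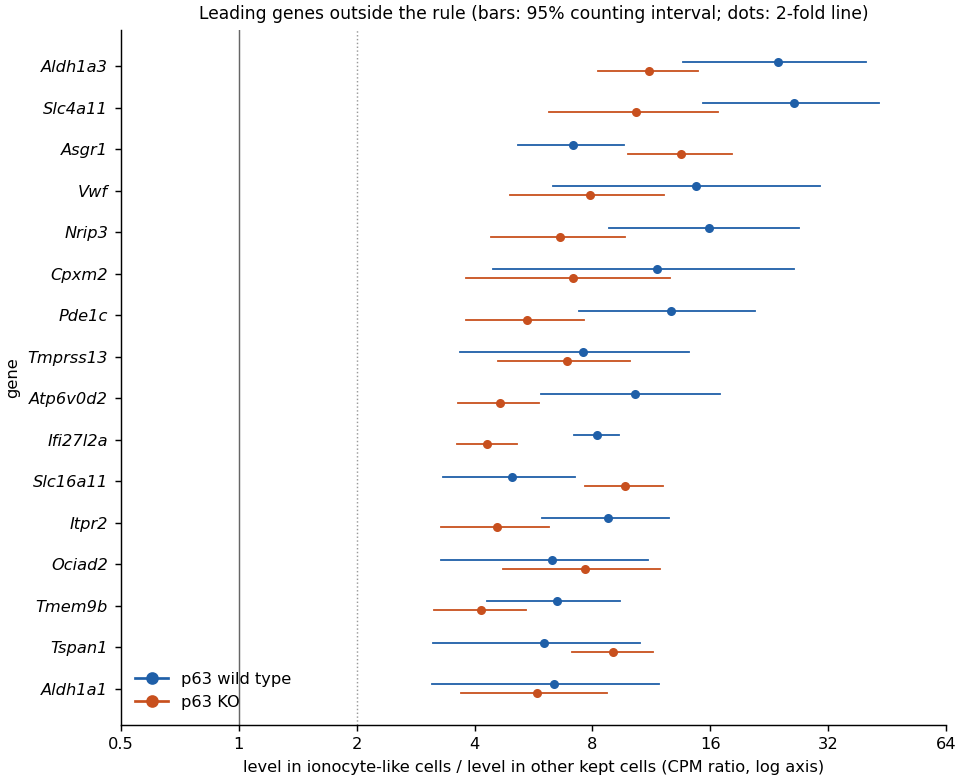
Ratio of the level in members to that in other kept cells (x axis, log scale) for the 16 leading genes outside the rule, in the wild-type (blue) and KO (orange) library; bars are 95% counting intervals and the dotted line is 2-fold. Ratios ran from 4.17 (Tmem9b, KO) to 26.1 (Slc4a11, wild type), and all lower bounds lie above 2.

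Many genes known from ionocytes gave few counts. The list read here also holds Atp6v0d2, Asgr1 and Pde1c, described above. Of 23 such genes outside the rule, 15 for the wild type and 19 for the KO had at least 10 UMIs over both sides. The 50 UMIs needed for a call were held by 12 in each library. Of those 12, 5 passed as higher in each library, Atp6v0d2, Asgr1 and Pde1c among them, beside 1.27% and 1.43% over all genes. Median log2 ratios, over the 15 and 19 genes, were 1.26 and 1.05 against 0.13 and -0.04 over all genes. Without Atp6v0d2, 4 passed in each, with medians of 1.193 and 1.025. Against Klk-rich duct cells 1 and 2 passed, with medians of 0.24 and 1.37 log2 against 0.24 and 0.16 over all genes, so the list did not stand above the background of the wild type there. Cftr, the chloride channel mutated in cystic fibrosis, was found in 3 of 26 and 13 of 76 members. It stood at 28.2 against 12.0 CPM in the wild type, a ratio of 2.35 (0.476 to 7.08), and passed in the KO, at 79.9 against 15.3 CPM, 5.23-fold (2.88 to 8.91). Bsnd passed in the KO, 4.70-fold (2.25 to 8.88) from 11 UMIs in 11 members, and had 3 UMIs in 3 members in the wild type. Bsnd did not pass in the KO under TMM scaling. Tfcp2l1, a transcription factor of kidney collecting duct, passed in the wild type, 2.90-fold (2.37 to 3.52), and not in the KO, at 2.02-fold (1.75 to 2.32), nor in the wild type under TMM scaling, at 1.84-fold. Slc26a4 and Slc4a9, bicarbonate exchangers of kidney intercalated cells, and Foxi3 were at 0 in the members of both libraries. A count of 0 over 26 and 76 cells of this depth allows 11.5% and 3.95% of cells with a UMI.

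Most proton pump subunits stood modestly higher in members than in other kept cells, by different amounts. Of the 22 V0 and V1 subunits, 19 had at least 10 UMIs in each library. Their median log2 ratio was 0.80 for the wild type and 0.65 for the KO, against 0.13 and -0.04 over all genes, and 0.35 and 0.40 under TMM scaling, against medians of -0.25 and -0.22. Over members inside the main clusters the median was 1.23 and 0.88, against -0.17 and -0.20 over all genes. Against Klk-rich duct cells it was 0.31 and 0.42, over 15 subunits each. Over all genes the median there was 0.24 and 0.16, which leaves little difference in the wild type. In each library 16 of 19 lay above 1 by ratio, 9 and 10 had an interval wholly above 1, and 0 had one wholly below 1. The 50 UMIs needed for a call were held by 17 (wild type) and 16 (KO) subunits. Past the 2-fold rule stood 1 in the wild type, Atp6v0d2, and 2 in the KO, Atp6v0d2 and Atp6v0b. Over all genes 1.27% and 1.43% were higher.

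Within V0, Atp6v0b, a proteolipid of the rotor ring, was found in 16 of 26 and 45 of 76 members, at 348 against 171 CPM in the wild type, 2.03-fold (1.43 to 2.82), and 450 against 173 CPM in the KO, 2.60-fold (2.07 to 3.22), where TMM scaling ended its call. Atp6v0e stood at 1.94-fold (1.38 to 2.66) and 1.37-fold (1.01 to 1.83). Atp6v0d1, the broadly made counterpart of the d2 subunit, had 2 and 12 UMIs in members, with ratios of 0.544 (0.0655 to 1.98) and 0.924 (0.474 to 1.63). The d2 form was thus higher in members while the interval of the d1 form included 1. Atp6v0a4, the a subunit of kidney intercalated cells, was at 0 in both libraries' members.

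Within V1, Atp6v1d and Atp6v1e1, parts of the central and outer stalks, stood at 2.85-fold (1.85 to 4.21) and 2.57-fold (1.68 to 3.76) in the wild type, and 2.14-fold (1.57 to 2.85) for Atp6v1d in the KO, where the interval for Atp6v1e1 was 1.56 to 2.52. Atp6v1a, the catalytic subunit, stood at 1.82-fold (1.06 to 2.94) and 1.62-fold (1.16 to 2.21), and Atp6v1f at 1.73-fold and 1.59-fold. Atp6v1g3, the stalk subunit otherwise typical of kidney, stood at the largest ratios among the named pump genes, 36.8 (9.88 to 118) and 15.4 (4.80 to 43.4), but from 5 UMIs in 4 wild-type members and 6 UMIs in 5 KO members. It had too few UMIs for the rule. In the KO main cluster Atp6v1g3 had 18 UMIs, against 0 in the second Foxi1-led cluster. Atp6v1b1, the B subunit of kidney intercalated cells, had 3 and 2 UMIs in members.

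Of 10 accessory proteins, 8 had at least 10 UMIs, and 6 (wild type) and 8 (KO) had the 50 needed for a call. Of these 0 and 2 were higher, beside 1.27% and 1.43% over all genes. Atp6ap2, an assembly factor also known as the prorenin receptor, stood at 2.90-fold (1.78 to 4.48) in the wild type and passed in the KO, 3.91-fold (3.18 to 4.76), from 53 of 76 members. Wdr72, a WD-repeat protein, had 5 UMIs in 4 wild-type members, a ratio of 9.95 (3.05 to 25.4), and 13 UMIs in 13 KO members, 10.6-fold higher (5.20 to 20.1). Ncoa7 and Oxr1 did not pass in either library.

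**Figure D4:**
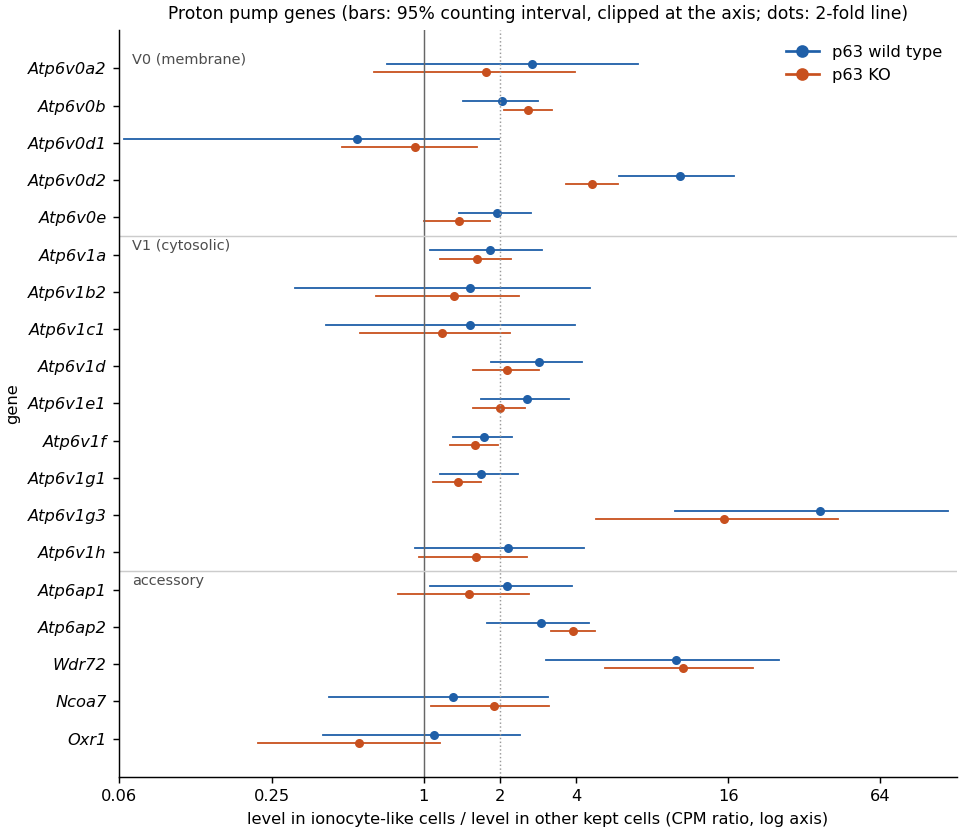
Ratio of the level in members to that in other kept cells (x axis, log scale) for the 19 pump subunits and accessory proteins with at least 10 UMIs in members of both libraries together, in the wild-type (blue) and KO (orange) library; bars are 95% counting intervals and the dotted line is 2-fold. Most subunits lie between 1 and 3, Atp6v0d2 lies at 10.3 and 4.64, and the wide bars of Atp6v1g3 reflect 5 and 6 UMIs.

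Sodium-handling genes of ducts were also detected. Scnn1b, the beta subunit of the epithelial sodium channel, was found in 11 and 40 members and was 7.48-fold (3.88 to 13.3) and 4.05-fold (3.06 to 5.26) higher than in other kept cells. Scnn1a, the alpha subunit, passed in the wild type, 9.14-fold (5.17 to 15.2), and stood at 1.62-fold (1.01 to 2.49) in the KO. Fxyd2, the gamma subunit of the sodium pump, was the most abundant, with UMIs in 26 of 26 and 75 of 76 members at 4227 and 4847 CPM, 4.22-fold (3.83 to 4.64) and 2.15-fold (2.01 to 2.29) above other kept cells. None of these 3 passed against Klk-rich duct cells, where Fxyd2 stood at 0.823-fold and 0.776-fold. Under TMM scaling Fxyd2 did not pass in the KO, at 1.79-fold. Of 24 sodium and potassium transport genes, 14 (wild type) and 16 (KO) had the 50 UMIs needed for a call. Of these 4 and 2 were higher, beside 1.27% and 1.43% over all genes, and none lower. Medians were 0.59 and 0.60 log2 against 0.13 and -0.04 over all genes. Against Klk-rich duct cells the medians were -0.34 and 0.06, against 0.24 and 0.16 over all genes.

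Carbonic anhydrases, which supply protons and bicarbonate, were not higher as a group. Of 13 carbonic anhydrases, 5 (wild type) and 7 (KO) had the 50 UMIs needed for a call. Of these 0 were higher, and 1 and 4 were lower, beside 0.35% and 1.55% lower over all genes. Car6, the secreted salivary form, stood at 169 against 7684 CPM and 55.0 against 3135 CPM, and Car2, the cytosolic form of kidney intercalated cells, at 94.1 against 183 CPM in the wild type and, from 6 UMIs, at 0.182-fold (0.0667 to 0.398) in the KO. Of acinar genes, 5 of 10 measured in the wild type and 4 of 8 in the KO were lower. Mucl2, a secreted mucin-like protein, had 487 UMIs in 26 of 26 and 271 in 69 of 76 members, at 4585 and 1354 CPM, beside 118375 and 38057 CPM in other kept cells. Reference cells, which should lack Mucl2, stood at 25052 and 3310 CPM, above the members.

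Of 30 nuclear genes of the respiratory chain, 1 and 2 were higher, beside 1.27% and 1.43% over all genes. Their medians were 0.87 and 0.64 log2 against 0.13 and -0.04 over all genes. Ndufa4, a subunit of the chain, passed in both, 2.83-fold (2.24 to 3.52) and 2.45-fold (2.14 to 2.81), and in neither under TMM scaling, at 1.79-fold and 2.04-fold. Beside this, members had a higher mitochondrial share of UMIs than other kept cells, as did Klk-rich duct cells, with medians of 13.7% and 13.1%. The part of RNA quality in this was not tested. Of 16 Notch pathway genes, 11 (wild type) and 10 (KO) had the 50 UMIs needed for a call, and none passed. Hes1, a Notch target, stood at 0.819-fold (0.547 to 1.18) and 0.955-fold (0.717 to 1.25). Of 26 duct and epithelial transcription factors only Id1, in the wild type, passed, at 4.35-fold (2.28 to 7.60), and not under TMM scaling. Of 9 tuft cell genes, 8 were at 0 in all members, Trpm5, Pou2f3 and Avil among them. The other, Dclk1, was found in 5 of 26 and 2 of 76 members. The tuft genes summed to 94.1 against 61.6 CPM in the wild type and 9.99 against 12.4 CPM in the KO. All 6 neuroendocrine genes, Chga and Chgb among them, were at 0 in all members.

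Against other kept cells, which include the other cell types themselves, genes of other cell types were not called higher in members. The exception was haemoglobin in the wild type, and some genes were called lower. Over all genes 0.35% (wild type) and 1.55% (KO) were lower. Basal genes summed to 819 against 1250 CPM in the wild type and 225 against 231 CPM in the KO. In the wild type, endothelial genes summed to 104 against 96.2 CPM and myoepithelial genes to 18.8 against 216 CPM. Of 5 basal keratin and p63 genes 0 passed in either direction, and they were found in 8 of 26 and 4 of 76 members, at up to 0.249% and 0.586% of a cell's UMIs. Immune genes were lower for 2 of 7 in the wild type (C1qa and Cd74) and 5 of 7 in the KO, fibroblast genes for 0 of 4 and 1 of 5 (Dcn), and myoepithelial genes for 1 and 3 of 5. None of these was higher, and 0 of 6 endothelial genes passed in either library. Immune genes were found in 11 and 7 members, fibroblast genes in 11 and 10 and endothelial genes in 3 and 6. In wild-type members the fibroblast UMIs were all of Dcn, with Col1a1, Col1a2, Col3a1 and Pdgfra at 0. In KO members Col1a1, Col3a1 and Pdgfra were at 0. Of 4 haemoglobin genes, 2 were higher in wild-type members, but 0 without the cell of 51.3% haemoglobin described above, and 4 were lower in KO members. Against Klk-rich duct cells, 4 of 4 were higher in the wild type and 1 of 4 in the KO, with no cell left out. Basal genes were higher there for 2 of 2 measured in the wild type, at 819 against 83.1 CPM, and 0 of 1 in the KO. Immune, fibroblast, endothelial and myoepithelial genes gave 0 calls there, most with under 50 UMIs. Over all genes 8.01% and 3.4% were higher than in Klk-rich cells. Granular tubule genes, which hold the kallikreins of the rule, were lower for 2 of 16 and 9 of 17. Simple epithelial genes were present, with Krt18 in 25 of 26 and 74 of 76 members, and only Cldn10 was lower in both.

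Stress and signalling lists gave few calls, while the defence list gave more in the KO. Over all genes 1.27% (wild type) and 1.43% (KO) were higher and 0.35% and 1.55% lower. Of 20 stress and immediate early genes 0 passed in the wild type and Hspa1a, a heat-shock protein, was lower in the KO. Of 11 glucocorticoid and nutrient stress genes 0 passed in the wild type and Tsc22d3 was lower in the KO. Of TGF-beta, activin and follistatin genes 0 of 24 and 0 of 22 passed. Of defence and acute-phase genes, 7 (wild type) and 9 (KO) had the 50 UMIs needed for a call. Of these 1, Lyz2, was lower in wild-type members. In the KO 5 were lower, while Wfdc2, a secreted protease inhibitor, was 2.49-fold higher (2.20 to 2.81).

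The comparison of genotypes asked how members of the KO library differed from those of the wild type. Of 753 genes with at least 50 UMIs over both, 11 (1.46%) were higher and 14 (1.86%) lower in KO members. Higher were S100a6, a calcium-binding protein, Anxa1, a calcium-dependent membrane-binding protein, Apobec3, an antiviral cytidine deaminase, Mt2, a metallothionein, and Tspan1. Lower were Wfdc18, a small secreted protein of the WAP family, Cryab, a small heat-shock protein, Mucl2, Ifi27l2a, an interferon-induced gene, and Cyp2f2, a cytochrome P450. These 10 also passed with only the 17 and 59 members inside the main clusters, where 7 genes were higher and 12 lower. These clusters were made in each library alone and may hold different cells. When the libraries were clustered together, the cluster with 58 of 76 KO members held 5 of 26 wild-type members, and a further one held 8 and 4. Under TMM scaling, under which the all-gene median went from 0.06 to 0.21 log2, the split was 16 higher and 11 lower. Of the 10, Cyp2f2 did not pass under TMM scaling. The labels do not say in which cells p63 was removed.

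S100a6 (chromosome 3, 90612882 to 90624181, plus strand) had 76 UMIs in 22 of 26 wild-type members, at most 10 per cell, and 798 UMIs in 74 of 76 KO members, at most 50 per cell. The level was 715 and 3987 CPM, 5.57-fold higher in the KO (4.40 to 7.15), or 2.46 log2. Inside the main clusters it was 908 and 5218 CPM, 5.75-fold higher (4.29 to 7.87), with UMIs in 13 of 17 and 59 of 59 cells. In Klk-rich duct cells the ratio was 1.39, and in immune and endothelial reference cells S100a6 was 2.84-fold lower in the KO. In the KO, S100a6 stood at 5493 CPM in the main cluster and 891 CPM in the second Foxi1-led cluster.

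Anxa1 had 74 UMIs in 22 wild-type members and 471 in 69 KO members, 3.38-fold higher (2.64 to 4.38), and 2.75-fold (2.08 to 3.69) inside the main clusters, with ratios of 1.05 in Klk-rich and 1.29 in reference cells. Tspan1 had 13 UMIs in 5 and 91 in 45 members, 3.72-fold higher (2.07 to 7.24), with 0.91 in Klk-rich cells. Apobec3 had 21 UMIs in 15 and 153 in 61 members, 3.87-fold higher (2.44 to 6.43). For Apobec3 the ratio was 2.65 in Klk-rich and 1.23 in reference cells. The differences between these ratios were not tested.

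Mt2, Cirbp, Pdcd4, Serinc3 and Trp53inp1 were higher in KO members and stood higher in other KO cells too. Mt2 was 2.78-fold higher in members (2.16 to 3.61), and its ratio was 4.48 in Klk-rich and 5.56 in reference cells. Cirbp, a cold-inducible RNA-binding protein, was 4.28-fold higher (2.50 to 7.89), beside 4.75 and 3.42. Pdcd4, an inhibitor of translation, was 7.30-fold higher (3.58 to 17.3), beside 10.3 and 1.75, and rested on 8 UMIs in 5 wild-type members. Serinc3 was 3.15-fold (2.08 to 4.92) and Trp53inp1, a p53-induced gene, 5.31-fold higher (lower bound 2.30), beside 2.42 and 3.72 in Klk-rich cells. Msi2, an RNA-binding protein, had 7 and 65 UMIs and was 4.93-fold higher (2.26 to 12.7). Inside the main clusters Pdcd4, Cirbp, Serinc3, Trp53inp1 and Msi2 did not pass, with fewer UMIs but ratios above 2. Pdcd4 stood at 5.67-fold (1.82 to 28.6), Cirbp at 3.74-fold (1.88 to 8.45), Serinc3 at 2.26-fold, Trp53inp1 at 4.25-fold and Msi2 at 3.09-fold. Pdcd4, Trp53inp1 and Msi2 had under 50 UMIs there.

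Among lower genes, Wfdc18 had 504 UMIs in 17 of 26 wild-type members, of which 168 lay in 1 cell, and 143 in 23 of 76 KO members, of which 51 lay in 1 cell. It was 6.64-fold lower in KO members (5.50 to 8.05) and 31.2-fold lower (21.1 to 48.1) inside the main clusters, from 326 UMIs in 10 of 17 and 27 UMIs in 13 of 59 cells. Wfdc18 was also 2.97-fold lower in Klk-rich and 3.96-fold lower in reference cells of the KO. Cyp2f2 was 2.72-fold lower (2.02 to 3.67) and 9.62-fold lower (5.65 to 17.2) inside the main clusters, with 1.41-fold lower in Klk-rich and 3.02-fold lower in reference cells. Cryab was 4.23-fold lower (2.77 to 6.58), beside 8.56-fold in Klk-rich cells, and Ifi27l2a 3.22-fold lower (2.62 to 3.97), beside 6.13-fold in Klk-rich and 9.14-fold in reference cells.

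Lower genes also included products of other cell types. Smgc, an acinar secreted protein, had 53 UMIs in 22 and 8 UMIs in 7 members, 12.5-fold lower in the KO (5.90 to 30.4), and was 8.97-fold lower in reference cells. Mucl2 was 3.39-fold lower (2.91 to 3.94) and Scgb1b27, a secretoglobin, 2.98-fold lower (2.18 to 4.08), with 7.57-fold and 9.42-fold in reference cells. All 4 haemoglobin genes were lower, at a sum of 38014 CPM in wild-type and 5291 CPM in KO members, and 3 of 4 without the wild-type cell that held 2275 of 4038 such UMIs, which left 17319 CPM. In the KO, 1 cell held 953 of 1059. Inside the main clusters the sums were 1457 and 563 CPM. Dcn, a matrix proteoglycan of fibroblasts, and Apoe, a lipid carrier of macrophages, were 6.38-fold and 4.42-fold lower in members, at 4.38-fold lower and a ratio of 1.08 in reference cells, and neither passed inside the main clusters, with 14 and 9 UMIs for Dcn. Ifitm3, an interferon-induced membrane protein, was 2.74-fold lower (2.15 to 3.51) and did not pass inside the main clusters either, at 2.16-fold (1.59 to 2.93), and stood at a ratio of 1.10 in reference cells. The part of free RNA and mixed droplets in these genes was not tested.

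**Figure D5:**
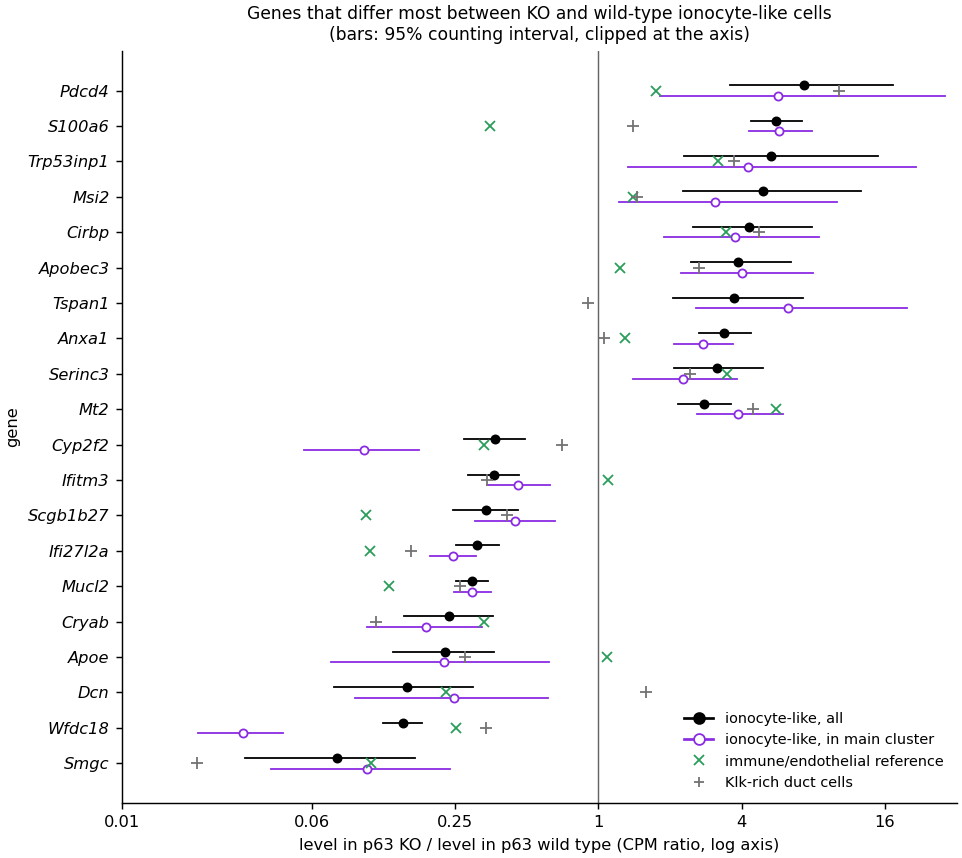
Ratio of the KO to the wild-type level (x axis, log scale) for the 10 highest and 10 lowest named genes in members, over all members (black) and over those in the main clusters (purple), with 95% counting intervals; crosses and plus signs are the same ratio in immune and endothelial reference cells and in Klk-rich duct cells, without intervals. S100a6, Anxa1 and Tspan1 lie to the right in members and at 1.39, 1.05 and 0.91 in Klk-rich cells, and Tspan1 has no reference value because it had 0 wild-type UMIs there.

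Of the listed identity genes, none passed the rule of size between genotypes, but few had the UMIs for a call. The 5 rule genes chose the members in both libraries, so their levels in members are set in part by that choice. They are given as a description and do not show whether the genotypes are alike in them. The 50 UMIs needed for a call were held by 4 of the 5 rule genes and 4 of the 23 listed ionocyte genes measured. They were held by 8 of the 22 pump subunits and 1 of the 10 accessory proteins. Of these, 0 passed in either direction, beside 1.46% higher and 1.86% lower over all genes. With so few genes, 0 calls does not show that the genotypes are alike. The leading genes Tspan1 and Ifi27l2a, outside these lists, did pass. Foxi1 stood at 188 CPM in wild-type and 430 CPM in KO members, a log2 ratio of 1.15, and Stap1 at 141 and 79.9 CPM, a log2 ratio of -0.75. Asgr1 had 442 and 315 CPM and Aldh1a3 188 and 320 CPM. The 12 ionocyte genes with at least 10 UMIs over both had a median log2 ratio of 0.49, and the 14 such pump subunits 0.34, against 0.06 over all genes. In reference cells the pump subunits had a median of 0.84, against 0.22 over all genes. At this depth, with 26 wild-type cells, most of these genes had under 50 UMIs and a smaller difference was not detectable.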

How the data were processed

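Whole submandibular glands were measured by 10x Chromium 3' v2 single-cell RNA sequencing, with 1 library per genotype. As deposited, each table gives the unnormalized UMI count of every gene in every barcode. Per the submitters' processing notes, mm10 was the build and the tools were Seurat 3.1.2, Cell Ranger 2.1.0 and bcl2fastq 2.19.1, with no role given for any. Symbols were matched by gene identifier for 27645 of 27998 genes.

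The libraries held 8811082 (wild type) and 11828669 (KO) UMIs in 1970 and 4726 barcodes. Cells were kept with 200 or more genes if mitochondrial UMIs made up less than 20%. Klk-rich duct cells had at least 8% of UMIs from the Klk1 family. The members and gene lists were chosen with earlier results of these data known. UMIs were summed over the cells of a class and given as CPM. Ratios carry exact conditional Poisson 95% intervals, shares exact binomial (Clopper-Pearson) ones, and a count of 0 is given a limit of 3 counts. These cover counting error only, and free RNA and cell differences add to it. Log2 ratios had 10 CPM added. List medians used genes with at least 10 UMIs over both sides. The named genes were the rule genes and markers, pump genes with at least 10 UMIs in members, the 20 leading genes, the 10 highest and 10 lowest between genotypes past the rule of size, and up to 5 per list plus those past the rule. Other genes named were picked after their values were seen.

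Each library was clustered with Leiden (resolution 1, 2000 variable genes, 30 components, 15 neighbours). No doublet caller was run, and members above 3 times the median UMIs of kept cells were left out as an alternative. Other alternatives covered the barcode filter, the rule's limits, depth, scaling, the compared cells and the clustering, and the use of main-cluster members only and the haemoglobin values without 1 cell were added after the data were seen. The interval code was tested on simulated data. Software was Python 3.11.15, numpy 2.4.6, scipy 1.17.1, pandas 2.3.3, scanpy 1.11.5, leidenalg 0.10.2, matplotlib 3.10.9, R 4.3.3 and edgeR 4.0.16, which served for TMM factors only.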

Additional observations from a re-analysis of the deposited data

Results flagged for a closer look

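Barcodes left out for their mitochondrial share also met the gene rule, 14 of the wild type and 48 of the KO. All had at least 200 genes, with medians of 2508 and 2644 UMIs, and 32.1% and 33.6% of their UMIs were mitochondrial. Of 6 genes outside the rule, all 6 in the KO and 3 in the wild type had an interval wholly above 1 against the other 293 and 2255 barcodes left out. Slc12a2 was 4.20-fold (3.20 to 5.46) and 7.54-fold (6.52 to 8.69) higher, and Aldh1a3 stood at 4.55-fold (1.35 to 12.2) and 7.19-fold (4.96 to 10.2). Asgr1 stood at 3.42-fold (1.84 to 5.93) and 4.41-fold (2.45 to 7.43), and Atp6v0d2 at 1.79-fold (0.697 to 3.85) and 2.83-fold (2.01 to 3.89). Slc16a11 stood at 2.73-fold (0.954 to 6.42) and 5.93-fold (4.05 to 8.45), and Pde1c at 2.99-fold (0.915 to 7.67) and 4.26-fold (2.73 to 6.41). With no barcode filter, 40 and 124 barcodes met the gene rule.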

How the results depend on the processing

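With 1 library per genotype, neither a replicate check nor a test was possible. No paired analysis was possible because there is 1 library per genotype. Depth limits the low genes, since 26 wild-type members left 753 genes with 50 UMIs for the genotype comparison. A stricter barcode filter (500 genes, 10% mitochondrial) gave shares of 1.14% (wild type) and 0.801% (KO), which turned the order of the libraries, 56 genes higher in KO members than in other kept cells, 14 in both libraries, and 7 higher and 8 lower between genotypes. It also turned Ociad2 in the KO to -0.93 log2 and Tspan1 between genotypes to -0.0473. At least 3 co-marker UMIs gave a KO share of 2.19% and 8 genes lower between genotypes, and no kallikrein limit gave 22 lower. Thinning to 1000 UMIs, which also chose the members again from thinned counts, gave shares of 0.481% and 1.11%, 21 and 44 higher genes, 3 in both, and 1 higher and 6 lower between genotypes. In thinned wild-type cells Vwf turned to -0.98, Tspan1 to -1.67 and Aldh1a1 to -1.67 log2, and between genotypes Wfdc18 turned to 1.02, Cryab to 2.23 and Ifitm3 to 0.18. Taking the main clusters as members gave shares of 2.59% and 7.59%, 191 and 228 higher genes, 75 in both, and 19 higher and 36 lower between genotypes. TMM scaling gave 32 and 74 higher genes, 22 in both. A minimum of 20 UMIs gave 19 higher and 24 lower between genotypes. Against Klk-rich cells 24 genes were higher in both, members of the main clusters alone gave 7 higher between genotypes, and clustering the libraries together left 23.1% of wild-type members in 1 cluster. The cause of these changes was not tested. Of the other values, 90 counts, shares and medians stayed within their limits, and for single genes 1626 did, while 219 moved and 155 lost their call.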

Other observations

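Further genes of ionocytes and of the main clusters were looked at after their values were seen. Dsc3, a desmosomal cadherin, was seen in 9 wild-type members of 26 and 34 KO members of 76, 5.34-fold (2.50 to 10.1) and 7.29-fold (5.32 to 9.82) above other kept cells. Foxi2, a relative of Foxi1, was found in 2 and 11 members, and Dmrt2, a transcription factor, in 3 and 7. Neither was found in the 115 and 472 reference cells. Iapp, islet amyloid polypeptide, was among the leading genes of the KO main cluster. In the wild type its 14 member UMIs lay in 1 of 26 cells, and in the KO its 18 member UMIs lay in 5 of 76 cells, with 10 in 1 of them. Other kept cells held 6 UMIs in 5 of 1637 cells and 42 UMIs in 15 of 2347.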
